A study of Homo sapiens with 6 samples.

Results

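Hepatic urea cycle and amino acid catabolism genes were followed in PLC/PRF5 cells, a human hepatocellular carcinoma line, after knockdown of MTR4, the RNA helicase that feeds nuclear transcripts to the RNA exosome. The 54 genes were taken by symbol from a list of enzymes, out of 60675 genes in the count files. Of the 54, 46 passed a filter on low counts and were tested among 18075 genes. The series held 3 control libraries and 3 MTR4 KD libraries, each the raw count of RNA sequencing reads per gene. The controls carried no knockdown, and both groups were 1 line grown in serum-containing medium. The labels say only control and MTR4 KD, while the study's text describes the sequenced knockdown as inducible, its hairpins as short hairpin RNAs and the control as isogenic cells. A figure legend of the study compares the inducible cells before and after doxycycline, so the groups may also differ in this drug. The study found no effect of doxycycline on glycolytic genes in cells with an inducible scramble hairpin, but reported no such control for the genes listed here. A doxycycline-treated scramble library was not analysed here. Any doxycycline, the hairpin's induction and the loss of MTR4 therefore cannot be told apart. The question of the comparison was which genes are affected by MTR4 in these cells, the study's interest being their metabolism.

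The liver disposes of amino acids by removing the amino group, which enters the urea cycle, and by breaking down the carbon skeleton. Carbamoyl phosphate made in mitochondria joins ornithine to give citrulline, aspartate brings the second nitrogen, and arginase releases urea. The carbon skeletons run through separate routes that end in fumarate, pyruvate, glutamate, folate-bound carbon units or acetyl-CoA. Hepatocytes are the main site of most of these routes, and liver cancers often express their enzymes unevenly.

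The libraries held 60686786 to 72708682 counts on genes. They fell into 2 sets that crossed the conditions, by the share of read entries that did not align to a unique place. That share was 34.7 to 37.5% in control 1, control 3 and MTR4 KD 3, and 14.8 to 18.2% in control 2, MTR4 KD 1 and MTR4 KD 2. The first set is called here the libraries with more non-unique reads, the other those with fewer. The fit therefore had a term for the condition and a term for the library set, and the fit with condition alone is given beside it. Levels are given as CPM, a gene's counts scaled to a common library size. The MTR4 transcript, annotated as MTREX, was 72.2 to 87.4 CPM in control and 44.1 to 48.8 CPM in MTR4 KD, and it fell by 0.82 on the log2 scale (SE 0.05, adjusted p = 3.62e-07, edgeR quasi-likelihood test). All 9 hepatocyte markers were detected, with a summed level of 22060 to 23770 CPM in control and 22360 to 23980 CPM in MTR4 KD. Of these 9, ALB, APOA1, FGB and GPC3 were higher in MTR4 KD (44.4%) and KRT8 and KRT18 lower (22.2%), where 9.43% and 10.8% of all tested genes were. With condition alone ALB and APOA1 were higher and KRT18 lower (22.2% and 11.1%, against 1.48% and 2.12%). Of 8 markers of other cell types 7 were in the files, summing to 5.09 to 8.19 CPM in control and 3.58 to 8.42 CPM in MTR4 KD. Only COL1A1 and COL3A1 passed the filter, and COL3A1 was lower, a call lost with condition alone (adjusted p = 0.205). The part of these markers in the results below was not tested. In bulk RNA, fewer cells using a gene and less RNA per cell cannot be told apart. The labels do not say that the replicates came from separate cultures, so the p-values measure the spread between these libraries, which may be technical.

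HAL and AMDHD1 of histidine breakdown and kynureninase (KYNU) of the tryptophan route fell after knockdown, while OTC of the urea cycle and 4 genes of glycine, serine and methyl-group breakdown rose. Of the 46 tested genes 12 were higher in MTR4 KD and 5 were lower at an adjusted p under 0.05, and 29 were not called. The 12 were OTC, HGD, AFMID, GLDC, SARDH, DMGDH, SDS, MAT1A, GPT, GLUD1, BCKDHB and MCCC1. The 5 were HAL, AMDHD1, KYNU, GOT1 and ARG1. That is 26.1% higher against 9.43% of all tested genes, and 10.9% lower against 10.8%. With condition alone 5 were higher (OTC, HGD, SARDH, SDS, MAT1A; 10.9% against 1.48%) and 4 lower (HAL, AMDHD1, KYNU, GOT1; 8.70% against 2.12%). The median log2 fold change of the 46 genes was 0.08, and that of all 18075 tested genes was 0.005. A call past 2-fold was reached by 2 genes, HAL and ARG1, both lower, where 1.24% of all genes were called lower at that size and 0.675% higher. No listed gene rose past 2-fold by edgeR, DESeq2 or limma-voom, the largest increase by edgeR being 0.77 on the log2 scale whatever its p. Without control 2 the count of genes called higher was 7, and leaving out any other library gave 11 to 13. The count past 2-fold was 1, HAL, whichever library was left out. No share of all tested genes stands beside the counts with a library left out, here or below. Control 2 was the only control among the libraries with fewer non-unique reads. Without it the condition term rested on control 1 and 3 against MTR4 KD 3. Likewise, without MTR4 KD 3 that term rested on control 2 against MTR4 KD 1 and 2.

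**Figure D1:**
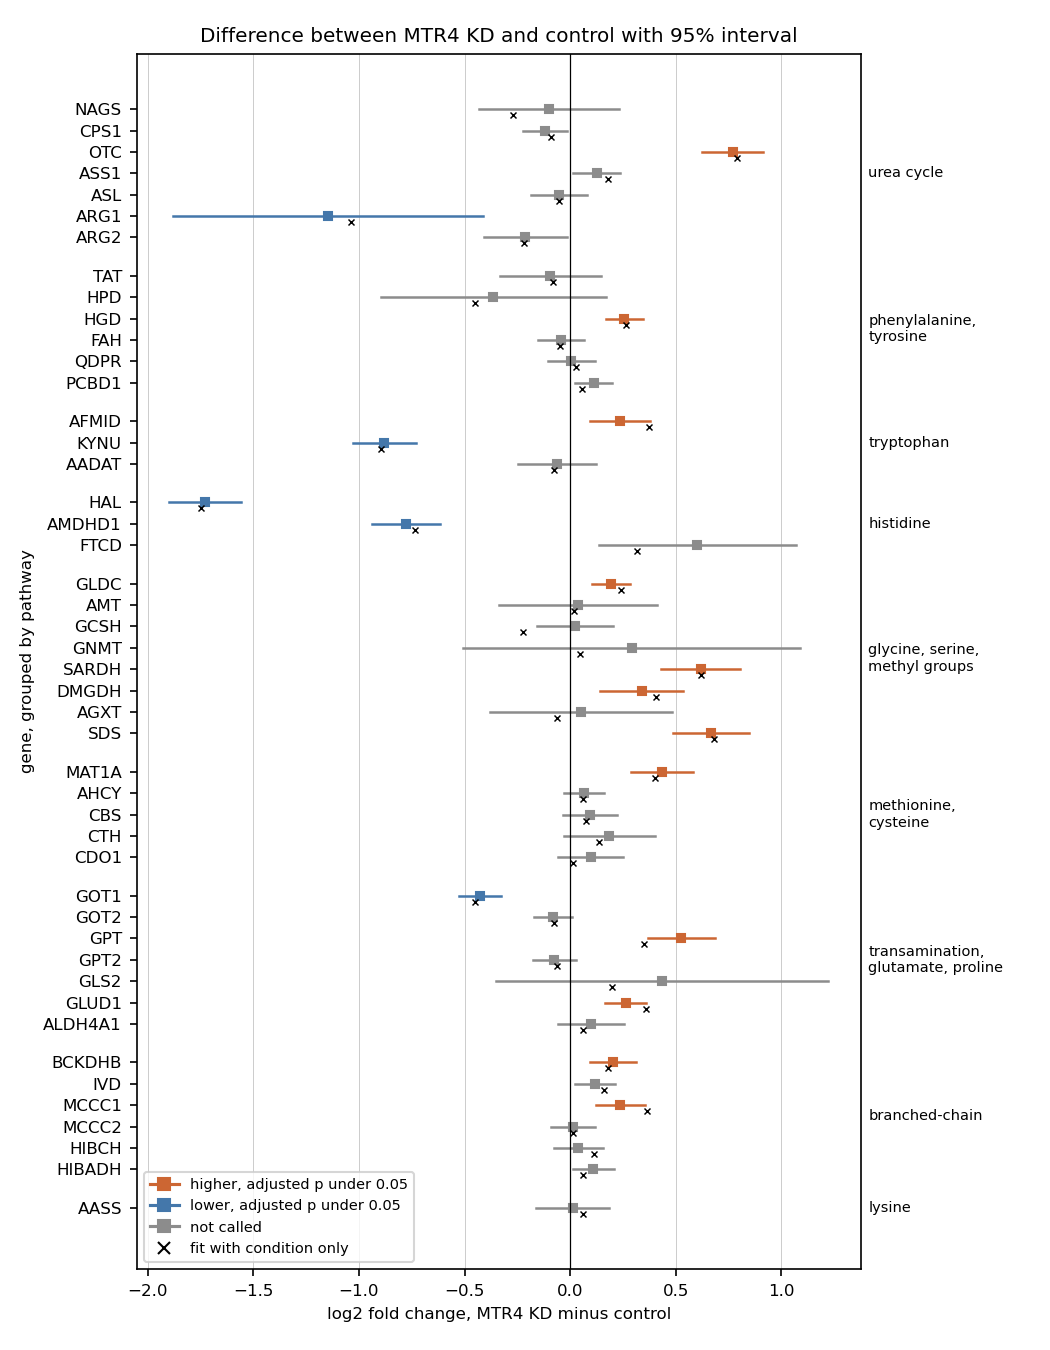
Log2 fold change of MTR4 KD minus control (horizontal axis) for each of the 46 tested genes, grouped by pathway, as squares with 95% intervals from the fit with condition and library set, n = 3 libraries a group. Crosses give the estimate with condition alone; HAL lies farthest to the left at -1.73 and OTC farthest to the right at 0.77, while most squares sit near 0.

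The plot of fold changes shows the 5 lower genes at -1.73 to -0.43 on the log2 scale and the 12 higher genes at 0.19 to 0.77. Every MTR4 KD library was above every control library for 9 genes, which is 19.6% against 12.1% of all tested genes. Every MTR4 KD library was below every control library for another 9, again 19.6%, against 12.6%. In the first case IVD, and in the second ARG2, HPD, GOT2 and GPT2, had groups that did not overlap but did not pass the test.

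The windows around the start sites of the 3 genes with the largest falls that were also called with condition alone, and of the 2 with the largest rises, are shown because they were the largest changes of the list that were called in both fits. The sequences are RefSeq promoters on GRCh38.p14, from 250 bases before to 50 bases after the annotated start, and 48 of the 54 genes had one. In these windows 9 short motifs were searched on both strands, overlaps allowed, and every match is in capitals. They were the TATA box (TATAAA), the CCAAT box, the GC box (GGGCGG), the E-box (CACGTG), a core site of HNF4 (CAAAGTCCA), a short site of HNF1 (GTTAAT), a core site of C/EBP (TTGCNNAA), one of ATF4 (TGATGNAA) and the cyclic AMP response element, or CRE (TGACGTCA).
HAL, chr12:95996295-95996594, minus strand: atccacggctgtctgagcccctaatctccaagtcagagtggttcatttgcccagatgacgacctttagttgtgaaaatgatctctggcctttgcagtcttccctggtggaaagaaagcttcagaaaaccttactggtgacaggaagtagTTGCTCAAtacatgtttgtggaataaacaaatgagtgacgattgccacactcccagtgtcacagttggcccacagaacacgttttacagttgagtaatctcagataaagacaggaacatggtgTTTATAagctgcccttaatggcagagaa
AMDHD1, chr12:95943081-95943380, plus strand: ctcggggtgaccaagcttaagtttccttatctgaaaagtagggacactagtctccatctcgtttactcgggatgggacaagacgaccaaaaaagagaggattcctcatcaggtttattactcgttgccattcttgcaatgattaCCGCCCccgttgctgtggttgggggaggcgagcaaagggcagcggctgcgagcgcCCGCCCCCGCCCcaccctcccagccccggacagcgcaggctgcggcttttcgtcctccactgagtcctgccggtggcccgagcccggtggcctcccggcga
KYNU, chr2:142877414-142877713, plus strand: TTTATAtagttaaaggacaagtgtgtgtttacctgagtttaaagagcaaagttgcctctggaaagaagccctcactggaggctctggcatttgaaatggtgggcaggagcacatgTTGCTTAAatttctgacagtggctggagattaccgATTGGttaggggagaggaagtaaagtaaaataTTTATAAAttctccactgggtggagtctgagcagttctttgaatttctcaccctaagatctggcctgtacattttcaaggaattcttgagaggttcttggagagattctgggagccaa
OTC, chrX:38352354-38352653, plus strand: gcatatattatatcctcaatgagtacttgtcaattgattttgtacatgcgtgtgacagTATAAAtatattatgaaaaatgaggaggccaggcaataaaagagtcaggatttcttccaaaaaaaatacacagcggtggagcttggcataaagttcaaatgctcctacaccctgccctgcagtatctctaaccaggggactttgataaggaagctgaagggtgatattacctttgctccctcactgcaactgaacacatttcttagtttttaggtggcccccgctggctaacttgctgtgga
SDS, chr12:113403838-113404137, minus strand: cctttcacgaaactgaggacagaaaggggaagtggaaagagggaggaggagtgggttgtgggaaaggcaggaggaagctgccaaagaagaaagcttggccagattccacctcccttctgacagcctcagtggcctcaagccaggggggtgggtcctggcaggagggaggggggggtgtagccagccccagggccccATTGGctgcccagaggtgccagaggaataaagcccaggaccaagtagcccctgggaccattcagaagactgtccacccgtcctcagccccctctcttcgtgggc

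The HAL window held a C/EBP core whose first base lay at -101 from the start and a TATA box match at 23. The KYNU window also held a C/EBP core, at -135, besides a CCAAT match at -100 and TATA box matches at -250, -68 and -66. That core was in 4 of the 48 windows (8.33%) and in 10.5% of 35116 RefSeq promoters. The other holders were SARDH, which rose, and AASS, which was not called. AMDHD1 showed GC boxes only, at -106, -51 and -45, a motif that 28 of the 48 windows (58.3%) and 45.0% of all promoters had. The SDS window held a CCAAT match at -54, as 23 of the 48 did (47.9% against 34.6%). The OTC window held 1 match, a TATA box at -192, where 9 of 48 windows (18.8%) and 11.5% of all promoters had that motif. This OTC start lies within the annotated gene, which spans chrX:38327684-38422928. GOT1 was the only window of the 48 with the ATF4 core (3.62% of all promoters), and ARG2 the only one with the CRE (1.85%). Of the rest, the E-box was in 3 windows (6.25% against 7.26% of all promoters), the HNF1 site in 4 (8.33% against 6.88%) and the HNF4 core in 1, that of HAAO (2.08% against 0.384%). These are matches of letters, and no binding was measured.

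In the absence of knockdown the routes differed widely in level. Per kilobase of exon, ASS1 stood highest in the control libraries at 767 CPM per kilobase, followed by CPS1 at 143, AHCY at 134, PCBD1 at 76.4 and HGD at 41.7. At the other end were GLS2 at 0.0973, ARG1 at 0.337, FTCD at 0.344 and AMT at 0.347 CPM per kilobase. The cells held much RNA of ASS1 and CPS1 and little of ARG1, whose enzyme closes the cycle in liver. The 8 listed genes too low to test were TDO2, KMO, HAAO, UROC1, GLYAT, BHMT, PRODH and BCKDHA. UROC1 had 0 counts in all 6 libraries, which allows up to 0.0414 to 0.0498 CPM (3 counts in a library, counting error only). The other 7 did not exceed 0.245 CPM in any library. BCKDHA, a subunit of the branched-chain keto acid dehydrogenase, shares its exons on the same strand with ENSG00000255730, itself at 0 counts, so its reads may have been set aside as ambiguous and its low count is uncertain. Among the called genes, KYNU, DMGDH, GPT, GLUD1 and MCCC1 overlap a gene on the opposite strand, and KYNU, GLUD1 and GLDC have named pseudogenes, so some of their reads may be shared.

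Among the 7 urea cycle genes, OTC rose, ARG1 fell and the other 5 were not called. OTC, the mitochondrial enzyme that makes citrulline, measured 15.8, 16.0 and 13.9 CPM in control 1 to 3 and 26.6, 26.5 and 26.1 CPM in MTR4 KD 1 to 3. The 3 knockdown libraries lay close together and clear of all controls. OTC rose by 0.77 on the log2 scale (SE 0.07, adjusted p = 4.16e-06), from a mean of 15.3 ± 1.15 to 26.4 ± 0.239 CPM (SD, n = 3). ARG1, the cytosolic liver arginase, measured 0.827, 0.787 and 0.630 CPM in control and 0.440, 0.374 and 0.277 CPM in MTR4 KD. These are only 38 to 57 counts in the control libraries and 17 to 27 in the knockdown libraries, although the groups do not overlap. ARG1 fell by 1.15 on the log2 scale (SE 0.34, adjusted p = 0.0305), a call that was lost with condition alone (adjusted p = 0.109) and without any 1 of the 6 libraries (adjusted p = 0.0518 to 0.177).

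CPS1 and ASS1, the genes of the cycle with the most RNA, were not called. CPS1, which commits ammonia to the cycle, measured 1524, 1632 and 1582 CPM in control and 1443, 1579 and 1421 CPM in MTR4 KD. The groups overlap in 1 knockdown library, and the estimate was -0.12 (95% interval -0.22 to -0.02, adjusted p = 0.0958). ASS1, which joins citrulline to aspartate, measured 2205, 2386 and 2352 CPM in control and 2674, 2844 and 2346 CPM in MTR4 KD. MTR4 KD 1 and 2 were above all controls and MTR4 KD 3 was among them. Its estimate was 0.13 (95% interval 0.01 to 0.24, adjusted p = 0.110). Without MTR4 KD 3 it was 0.22 and called, but that estimate rests on control 2 alone against MTR4 KD 1 and 2. Within the libraries with more non-unique reads the difference was 0.04. ASS1 has 14 named pseudogenes, so its count may have lost reads that fit several places.

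The remaining members of the cycle were not called either. NAGS, whose product activates CPS1, measured 3.45, 2.56 and 4.15 CPM in control and 2.20, 2.89 and 3.33 CPM in MTR4 KD. Its groups overlap, and the estimate was -0.10 (95% interval -0.43 to 0.23). ASL, which cleaves argininosuccinate, measured 42.6, 43.6 and 45.95 CPM in control and 39.9, 45.5 and 42.0 CPM in MTR4 KD. It gave an estimate of -0.05 (95% interval -0.18 to 0.08). ARG2, the mitochondrial arginase, measured 9.41, 9.92 and 11.2 CPM in control and 8.54, 9.09 and 8.65 CPM in MTR4 KD. All its knockdown libraries were below all controls, yet the estimate of -0.21 (95% interval -0.41 to -0.01) had an adjusted p of 0.126. ARG2 overlaps VTI1B on the opposite strand, and whether strand was used in counting is not given in the sources used here.

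Histidine breakdown showed the largest fall of the whole list. HAL, histidine ammonia-lyase, which removes ammonia from histidine in the first step, measured 23.8, 24.7 and 26.0 CPM in control and 7.60, 6.65 and 7.94 CPM in MTR4 KD. Every knockdown library was far below every control. HAL fell by 1.73 on the log2 scale (SE 0.08, adjusted p = 1.82e-08), to 0.302 of the control level. AMDHD1, the imidazolonepropionase of the third step, measured 17.8, 18.7 and 18.1 CPM in control and 12.1, 10.7 and 10.0 CPM in MTR4 KD. These groups too were well apart, with a fall by 0.78 on the log2 scale (SE 0.07, adjusted p = 1.02e-05), to 0.584 of control. Between these steps stands UROC1, urocanate hydratase, which had no counts. FTCD, which passes the last fragment to folate, ranged from 0.746 to 2.104 CPM with overlapping groups, and its estimate of 0.60 (95% interval 0.14 to 1.07, adjusted p = 0.0659) was not called. HAL and AMDHD1 are neighbours on chromosome 12, at chr12:95972662-95996344 on the minus strand and chr12:95943331-95968720 on the plus strand, with their 3' ends facing each other across 3942 bases.

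In tryptophan breakdown KYNU fell and AFMID rose. KYNU, kynureninase, which splits alanine from kynurenine metabolites, measured 31.1, 32.8 and 33.3 CPM in control and 15.8, 18.0 and 18.5 CPM in MTR4 KD. The groups did not approach each other. KYNU fell by 0.88 on the log2 scale (SE 0.07, adjusted p = 1.91e-06), to 0.543 of control. AFMID, the formamidase upstream of it, ranged from 16.5 to 22.6 CPM in control and from 20.1 to 27.9 CPM in MTR4 KD, rising by 0.24 (SE 0.07, adjusted p = 0.0226). AFMID also differed between the library sets, and with condition alone its adjusted p was 0.267. The AFMID call was also lost without control 2, control 3 or MTR4 KD 1 (adjusted p = 0.169, 0.0576 and 0.0772). AADAT, a kynurenine aminotransferase, had an estimate of -0.06 (95% interval -0.25 to 0.12), and the route's first enzyme TDO2, with KMO and HAAO, was too low to test.

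Of the 6 phenylalanine and tyrosine genes only HGD was called. HGD, homogentisate dioxygenase, rose by 0.26 on the log2 scale (SE 0.04, adjusted p = 6.13e-04), from 112 ± 2.64 to 134 ± 0.872 CPM (SD, n = 3), with no overlap between the groups. Its adjusted p was 0.0479 with condition alone. With a term for the replicate number in place of the library set the call was lost (adjusted p = 0.0586). HPD, FAH and TAT of the same route were not called. HPD, which makes homogentisate, was low at 0.701 to 1.40 CPM and gave an estimate of -0.36 (95% interval -0.90 to 0.17). FAH, the last enzyme, gave -0.04 (95% interval -0.15 to 0.07), and TAT, tyrosine aminotransferase, -0.09 (95% interval -0.33 to 0.15). The pterin cofactor genes QDPR and PCBD1 gave 0.01 and 0.11.

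Glycine, serine and methyl-group breakdown held 4 of the 12 rises of the list, and its other 4 tested members were not called. SDS, serine dehydratase, which turns serine into pyruvate, measured 8.11, 8.51 and 7.28 CPM in control and 12.9, 12.5 and 13.0 CPM in MTR4 KD. The knockdown libraries were all above the controls. SDS rose by 0.67 on the log2 scale (SE 0.08, adjusted p = 1.07e-04), a 1.59-fold increase. SARDH, the mitochondrial sarcosine dehydrogenase, measured 14.8, 13.5 and 16.0 CPM in control and 23.4, 24.0 and 20.5 CPM in MTR4 KD. Its groups were also separate, with MTR4 KD 3 the lowest of the knockdown libraries. SARDH rose by 0.62 (SE 0.09, adjusted p = 2.57e-04), by 0.42 between libraries with more and by 0.82 between those with fewer non-unique reads. DMGDH, which makes sarcosine from dimethylglycine, rose by 0.34 (SE 0.09, adjusted p = 0.0183). Without control 2 its call was lost and its estimate was 0.17, which rests on MTR4 KD 3 alone for the knockdown. With condition alone its adjusted p was 0.129. GLDC, the decarboxylase of the glycine cleavage system, rose by 0.19 (SE 0.04, adjusted p = 0.00631), and it also differed between the library sets. The GLDC call was lost without control 2 (adjusted p = 0.0630) and with condition alone (adjusted p = 0.131). Its partners AMT and GCSH gave 0.04 (95% interval -0.34 to 0.41) and 0.02 (95% interval -0.16 to 0.20). GCSH has 6 named pseudogenes and was 8.11 CPM or less in all libraries with fewer non-unique reads and 12.8 CPM or more in those with more. GNMT and AGXT, which use glycine and glyoxylate, were low and gave 0.29 (95% interval -0.51 to 1.09) and 0.05 (95% interval -0.38 to 0.48).

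In methionine and cysteine breakdown, MAT1A alone of 5 tested genes was called. MAT1A, the S-adenosylmethionine synthetase of adult liver, measured 23.8, 21.3 and 23.5 CPM in control and 28.1, 32.2 and 30.5 CPM in MTR4 KD. All knockdown libraries lay above all controls. MAT1A rose by 0.43 on the log2 scale (SE 0.07, adjusted p = 6.25e-04), a 1.35-fold increase. Its adjusted p was 0.0483 with condition alone, and the call was lost with a term for the replicate number in place of the library set (adjusted p = 0.0583). The next steps were not called. AHCY, which hydrolyses S-adenosylhomocysteine, gave 0.07 (95% interval -0.03 to 0.16), and CBS and CTH of the transsulfuration route gave 0.10 and 0.19 (95% intervals -0.03 to 0.22 and -0.03 to 0.40). CBS has a near-identical annotated copy, which took 0.783 to 1.36 CPM of its own, so reads may be divided between them. CDO1, which oxidises cysteine, gave 0.10 (95% interval -0.06 to 0.25).

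**Figure D2:**
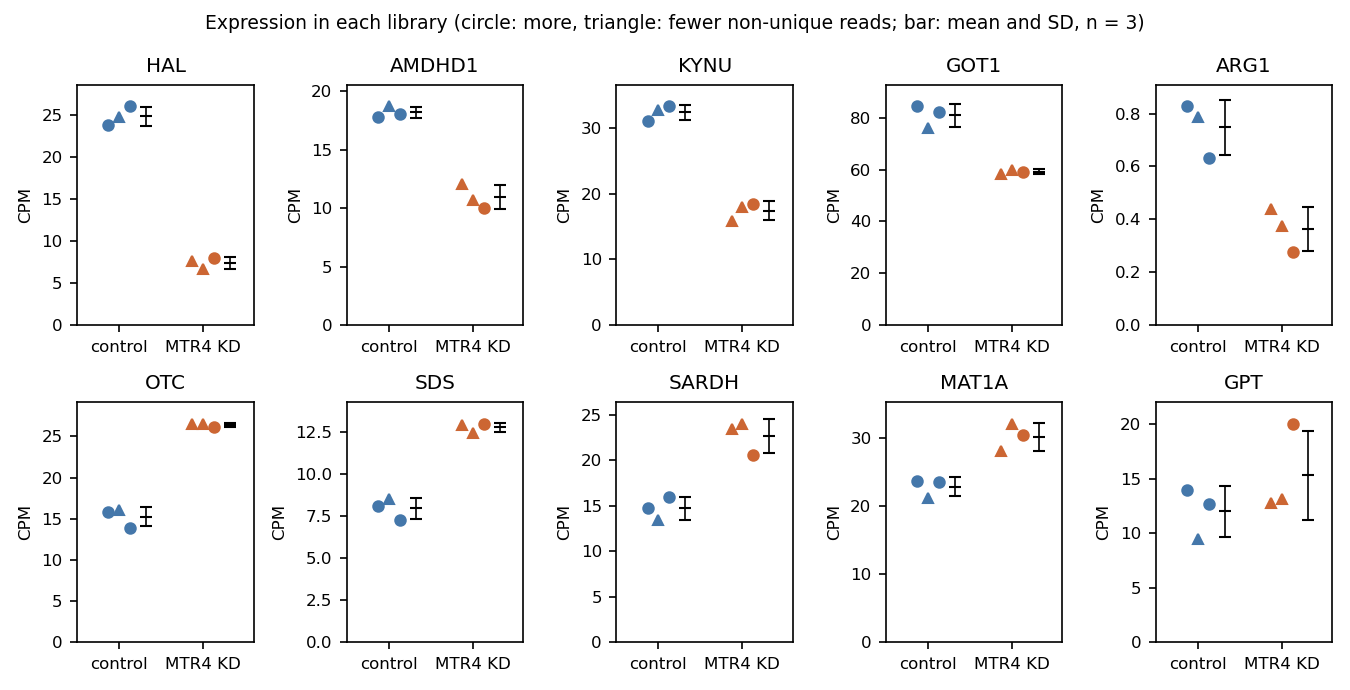
CPM in each library for the 10 called genes with an absolute log2 fold change of at least 0.4, controls in blue and MTR4 KD in orange, circles for more and triangles for fewer non-unique reads, with the mean and SD of 3 libraries beside them. The 5 falls are in the upper row and the 5 rises in the lower, and only GPT has overlapping groups.

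Of the aspartate and alanine aminotransferases, the cytosolic GOT1 and GPT were called, in opposite directions, and the mitochondrial GOT2 and GPT2 were not. GOT1, the cytosolic aspartate aminotransferase, measured 84.4, 75.9 and 82.4 CPM in control and 58.1, 60.0 and 59.2 CPM in MTR4 KD. The knockdown values were nearly equal and below every control. GOT1 fell by 0.43 on the log2 scale (SE 0.05, adjusted p = 3.47e-05), to 0.744 of control. GOT2, its mitochondrial counterpart, gave -0.08 (95% interval -0.17 to 0.01, adjusted p = 0.197), and the difference between the paralogs was not tested. GPT, the cytosolic alanine aminotransferase, measured 14.0, 9.43 and 12.7 CPM in control and 12.8, 13.1 and 20.1 CPM in MTR4 KD. The groups overlap, and within each condition the libraries with more non-unique reads were the higher ones. GPT rose by 0.53 (SE 0.07, adjusted p = 2.66e-04), by 0.59 and 0.46 within the library sets, but with condition alone the estimate was 0.35 with an adjusted p of 0.435. GPT2, the mitochondrial form, gave -0.08 (95% interval -0.18 to 0.03).

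Among the glutamate and proline genes GLUD1 was called. GLUD1, glutamate dehydrogenase, which frees ammonia from glutamate in mitochondria, rose by 0.26 (SE 0.04, adjusted p = 0.00112), from 245 ± 20.8 to 315 ± 41.1 CPM (SD, n = 3). Its groups overlap, the library set also changed it, and with condition alone its adjusted p was 0.140. The liver glutaminase GLS2 was at 0.277 to 0.685 CPM and gave 0.43 (95% interval -0.35 to 1.22). ALDH4A1, of proline breakdown, gave 0.10 (95% interval -0.06 to 0.26).

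Of the 6 tested branched-chain genes 2 rose and 4 were not called. BCKDHB, a subunit of the keto acid dehydrogenase, rose by 0.20 (SE 0.05, adjusted p = 0.0126), with all knockdown libraries at 44.6 CPM or more and all controls at 42.1 CPM or less. MCCC1, a subunit of the carboxylase for leucine carbon, rose by 0.24 (SE 0.05, adjusted p = 0.00755), with groups that overlap and a level that also differed between the library sets. Its partner subunit MCCC2 gave 0.01 (95% interval -0.09 to 0.12). IVD, HIBCH and HIBADH, further along the routes, gave 0.12, 0.04 and 0.11. Both calls were lost with condition alone (adjusted p = 0.182 and 0.235) and without control 2 (adjusted p = 0.108 and 0.0669). AASS, which opens lysine breakdown, gave 0.01 (95% interval -0.16 to 0.18).

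The library set alone moved 13 of the 46 genes (28.3%, against 31.5% of all tested genes), 5 of the 17 called genes among them. The difference had the same sign in both sets for 38 of the 46 genes (82.6%, against 68.1% of all tested genes). HAL differed by -1.65 and -1.80 in the sets of more and of fewer non-unique reads. For KYNU these values were -0.80 and -0.95, for AMDHD1 -0.84 and -0.72, and for OTC 0.81 and 0.73. No listed gene passed the edgeR test of the interaction between condition and library set, where 0.974% of all tested genes did. At an unadjusted p under 0.05 there were 2, SARDH (adjusted p = 0.215) and AASS (adjusted p = 0.336). The interaction was run with edgeR alone. The knockdown had only MTR4 KD 3 among the libraries with more non-unique reads, and control had only control 2 among those with fewer. The interaction fit left 2 residual degrees of freedom, so a missing call does not show that the differences were equal.

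Of 58 further genes of these pathways 56 were tested, and 16 were higher (28.6%, against 9.43% of all tested genes) and 6 lower (10.7%, against 10.8%). Without MTR4 KD 3 the count of genes called lower was 3. With condition alone 5 were higher (8.93%, against 1.48%) and none was lower by edgeR (2.12% of all tested genes), although 3 were lower at an unadjusted p under 0.05. OAT, which links ornithine to glutamate, measured 404, 390 and 378 CPM in control and 658, 682 and 694 CPM in MTR4 KD. It lay apart in every library and rose by 0.81 on the log2 scale. The next largest rises were those of DDC, aromatic amino acid decarboxylase, by 0.61, and ABAT, GABA transaminase, by 0.45. ALDH5A1, which follows ABAT, and ACADSB, of isoleucine breakdown, each rose by 0.31. BCAT1, the cytosolic branched-chain aminotransferase, had the largest fall among them, by 0.82, followed by SQOR, a sulfide oxidising enzyme, which fell by 0.50. SLC25A15, the mitochondrial ornithine carrier, fell by 0.26, ETHE1, of sulfide breakdown, by 0.23, and ALDH18A1, of proline and ornithine synthesis, by 0.21.

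Transcription regulators and sirtuins linked to these pathways were measured less surely, since the library set moved 7 of the 11. That is 63.6%, against 31.5% of all tested genes. Of the 11, 3 were called higher (27.3%, against 9.43%) and 2 lower (18.2%, against 10.8%), and the lower count was 1 without control 2 and without MTR4 KD 1. CEBPA measured 26.8, 7.49 and 28.6 CPM in control and 11.9, 13.6 and 41.1 CPM in MTR4 KD. The libraries with more non-unique reads were the higher ones in both conditions. It rose by 0.65 in the fit with the library set, as did KLF15 by 0.53 and the glucocorticoid receptor NR3C1 by 0.18. CEBPB fell by 0.29 and ATF4 by 0.18. With condition alone none of the 11 was called by edgeR, and 1 was higher and 1 lower at an unadjusted p under 0.05.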

How the data were processed

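RNA was extracted from PLC/PRF5 cells and sequenced with standard Illumina libraries. Per the labels and the study's methods, the authors aligned reads with HISAT2 2.1.0 to GRCh38 with Ensembl release 84 and deposited raw counts per gene from HTSeq, with no normalization; DESeq2 is named without a role, and the strand setting is not given in the sources used here. Summary lines of the files, holding 37.8 to 49.3% of entries (not unique, unaligned, ambiguous or off genes), were kept out of library sizes.

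Symbols, exon lengths and GC content came from GENCODE by Ensembl ID (56959 of 60675 genes), and coordinates from RefSeq on GRCh38. Genes passed edgeR's filterByExpr (minimum count 10) and were fitted by edgeR 4.0.16 quasi-likelihood in R 4.3.3 with TMM scaling and terms for condition and library set (over 30% non-unique entries or not, read from the files; the labels give no batch). P-values were adjusted by Benjamini-Hochberg over all 18075 tested genes, and a call is an adjusted p under 0.05. CPM are TMM-scaled. Intervals cover 95%. Differences within a library set have no test.

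Listed genes named with every library's value were the urea cycle members and called genes with an absolute log2 fold change of at least 0.4. Values in every library were also given for OAT and CEBPA, the largest rises of the further pathway genes and of the regulators. At most 5 further pathway genes or regulators were named in each direction. Members, lists and the library set were chosen with earlier results of these data known. Alternatives were DESeq2 1.42.0, limma 3.58.1 voom, other scalings, filters, GC offsets, a replicate block and leaving out each library. The scripts were tested on simulated data.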

Additional observations from a re-analysis of the deposited data

How the results depend on the processing

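The count of 5 listed genes called lower stayed at 4 to 6 under every alternative with a test. The 12 called higher became 5 with condition alone, and 7 to 13 when 1 library was left out, the lowest without control replicate 2. The 2 lower past 2-fold became 1 with condition alone, with at least 1 CPM in 3 libraries and without any 1 library (range 1 to 1). The 16 further pathway genes called higher became 5 and the 6 lower became 0 with condition alone; with a library left out they ranged from 11 to 15 and from 3 to 6, the lowest of the latter without MTR4 KD replicate 3. Regulators called higher (3) and lower (2) both became 0 with condition alone, and ranged from 2 to 4 and from 1 to 2 with a library left out; the lower count was 1 without control replicate 2 or MTR4 KD replicate 1. The median over listed genes ranged from 0.06 to 0.10 over these library omissions. Without control replicate 2 or MTR4 KD replicate 3 the condition term rests on 1 library set only. The counts with a library left out have no share of all tested genes beside them.

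The deviations of same-numbered libraries correlated at -0.24, 0.32 and 0.35 for numbers 1, 2 and 3. The library set was not removed from these values, and only the libraries numbered 1 lay in different sets. The correlations therefore cannot show whether same-numbered libraries were paired. The main fit took the numbers as names. Under a replicate block 4 listed genes were higher, 4 lower and 1 lower past 2-fold; 5 further pathway genes were higher and 2 lower, and regulators were 0 and 0. With GC offsets and the replicate block these counts were 11, 4, 1, 10, 2, 1 and 1. Neither fit has the share of all tested genes called beside it. In that last fit the estimate for ASL turned to 0.017 (adjusted p = 0.910), and with a library left out that for NAGS ranged from -0.203 to 0.0093, the latter without MTR4 KD replicate 3 (adjusted p = 0.989); neither was called in any fit. For the 22 genes that are urea cycle members or were called, over up to 16 tested settings each, 314 of 351 values kept direction and side of the threshold, 32 over 10 genes lost the call and 3 over 2 genes gained it. CPS1 was called without a filter (adjusted p = 0.0459) and by limma-voom (adjusted p = 0.0439). The cause of these changes was not tested. ARG1, GLS2, FTCD and GNMT rest on few counts, which widens their intervals.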
